A study of Mus musculus with 16 samples.

Results

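The clade A serpins of the mouse hepatocyte were followed as a family of 10 genes chosen by name: *Serpina1a*, *Serpina1b*, *Serpina1c*, *Serpina1d* and *Serpina1e*, *Serpina3k*, *Serpina3m* and *Serpina3n*, *Serpina6* and *Serpina10*. They are 10 of the 55450 genes in the deposited table, and all 10 passed the filter on low values. RNA-seq was performed on primary hepatocytes of wild-type male mice, isolated by liver perfusion, to ask how itaconate, a metabolite made by activated macrophages, acts on transcription in lipid-challenged cells. The 16 libraries fell into 4 groups of 4, which carry the replicate letters A to D. All groups were cultured overnight in the same medium with fetal bovine serum, insulin, transferrin and selenium. Untreated hepatocytes received nothing further, itaconate-treated cells received 10 mM sodium itaconate, lipid-treated cells received a chemically defined mixture of fatty acids and cholesterol diluted 10-fold, and lipid + itaconate-treated cells received both. A primary culture can keep some non-parenchymal cells. The labels do not say whether a letter stands for a mouse, a plate or a day, so the p-values measure the spread between these libraries, which may be technical.

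Serpins are folded around an exposed reactive centre loop. An inhibitory serpin offers this loop to a protease as bait, is cut, and traps the enzyme in a covalent complex. Clade A holds the secreted serpins of plasma, most of them made by hepatocytes. *Serpina1a* to *Serpina1e* are the mouse copies of the gene for alpha-1-antitrypsin, the inhibitor of neutrophil elastase. *Serpina3k*, *Serpina3m* and *Serpina3n* belong to the mouse expansion of the alpha-1-antichymotrypsin gene, and *Serpina3n* is known as an acute phase gene. *Serpina6* encodes corticosteroid-binding globulin, which carries glucocorticoids and does not inhibit a protease. *Serpina10* encodes the protein Z-dependent protease inhibitor, which acts on coagulation factors X and XI in their activated forms.

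All 10 genes lie on chromosome 12 (mm10), between *Serpina10* (chr12:103614786-103631444, minus strand) and *Serpina3n* (chr12:104406729-104414329, plus strand). The 5 *Serpina1* copies have a coding length of 1242 bases each and are identical at 96.3% to 98.5% of coding positions in pairs. The 3 *Serpina3* copies are identical at 82.6% to 91.0%, and genes of different subfamilies at 48.9% to 59.98%. Of the 1242 coding positions of *Serpina1*, 86 (6.92%) differ among the 5 copies. The stretch of 90 bases with the most differences lies near the 3′ end of the coding sequence, where serpins encode the reactive centre loop, and 20 of its 90 positions (22.2%) differ, against a median of 5 per stretch of that length. It is shown because reads can be told apart between the copies only at such positions. It lies in 1 coding exon, on the minus strand of mm10 (GENCODE M21 transcripts), and capitals mark the positions at which the 5 copies differ:
Serpina1a (chr12:103853725-103853814): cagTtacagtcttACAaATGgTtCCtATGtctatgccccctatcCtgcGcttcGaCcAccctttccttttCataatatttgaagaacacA
Serpina1b (chr12:103728292-103728381): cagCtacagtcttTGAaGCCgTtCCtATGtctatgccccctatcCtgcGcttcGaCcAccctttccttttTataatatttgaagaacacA
Serpina1c (chr12:103895062-103895151): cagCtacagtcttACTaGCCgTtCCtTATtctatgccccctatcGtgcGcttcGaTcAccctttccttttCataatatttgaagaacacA
Serpina1d (chr12:103763730-103763819): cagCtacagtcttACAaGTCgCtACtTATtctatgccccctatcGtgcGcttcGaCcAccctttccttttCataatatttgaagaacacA
Serpina1e (chr12:103947068-103947157): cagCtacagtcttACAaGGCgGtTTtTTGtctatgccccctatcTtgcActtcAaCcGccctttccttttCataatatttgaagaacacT
*Serpina1c* and *Serpina1d* differ at 5 positions of this stretch, the closest pair, and *Serpina1e* differs from *Serpina1a*, *Serpina1b* and *Serpina1c* at 13 positions each. The capitals thus set *Serpina1e* apart from the other copies.

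The promoters of the *Serpina1* copies are alike too, and whether they bear on the lipid estimates was not tested. RefSeq promoter entries (GRCm38, 300 bases) were matched for 6 of the 10 genes, the 5 *Serpina1* copies and *Serpina3n*. The 76 bases upstream of the start site shown here share 66 identical positions in all 5 copies, and capitals mark GTTAAT, the core letters bound by the hepatocyte factor HNF1. They are on the minus strand and overlap no annotated exon:
Serpina1a (chr12:103863625-103863700): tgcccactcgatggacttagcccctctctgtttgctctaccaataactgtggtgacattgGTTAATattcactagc
Serpina1b (chr12:103738200-103738275): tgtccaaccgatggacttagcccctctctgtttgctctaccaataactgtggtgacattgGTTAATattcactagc
Serpina1c (chr12:103904962-103905037): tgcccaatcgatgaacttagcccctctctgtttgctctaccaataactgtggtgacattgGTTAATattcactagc
Serpina1d (chr12:103773634-103773709): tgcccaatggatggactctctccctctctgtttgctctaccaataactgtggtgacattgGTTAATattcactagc
Serpina1e (chr12:103956960-103957035): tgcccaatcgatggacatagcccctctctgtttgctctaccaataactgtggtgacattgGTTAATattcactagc
On either strand, GTTAAT was in the promoters of the 5 *Serpina1* copies and not in that of *Serpina3n*, against 7.10% of the 32851 promoters in the table. The letters AGAACA, the core of the glucocorticoid receptor's element, were in all 6 entries, against 19.0% of promoters. The letters TTCNNNGAA, read by STAT factors, were in 0 of the 6, against 8.30% of promoters. The 5 copies are paralogs and not independent cases.

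Library totals ranged from 22346049 to 35512004 expected counts. Within groups, pairs with lipid + itaconate-treated replicate B stood farthest apart (chi-square per gene of 94.9 to 131, against at most 57.0 in every other pair). For the serpins, lipid + itaconate-treated replicate C was the library that stood apart, with the lowest level of the 16 for 9 of the 10 genes, and values without each of these libraries are given where they change a call. The 7 hepatocyte markers were all expressed, with *Alb* at a mean of 33508 CPM (counts scaled to library size by TMM). Macrophage markers summed to 158 to 327 CPM, mostly *Cd68*, cholangiocyte markers to 336 to 1171 CPM, almost all *Spp1* and *Sox9*, and endothelial markers to 11.2 to 22.6 CPM. All 7 stellate cell and all 5 neutrophil markers were under 1 CPM, and the neutrophil marker *Ly6g* was at 0 throughout.

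The family made up 1.42% to 1.90% of all counts in a library, with 1.12% to 1.52% from *Serpina1*. Levels set against each other between genes are given per kilobase of transcript. In untreated hepatocytes *Serpina1c* was the highest, at 3102 ± 43.8 CPM per kb (SD, n = 4). It was followed by *Serpina1e* (2567 ± 503), whose libraries overlapped with those of *Serpina1c*. *Serpina1b* (1899.6 ± 149) and *Serpina1a* (1655 ± 131) overlapped with each other, as did *Serpina3k* (1253 ± 57.0) and *Serpina1d* (1119 ± 87.2). Below them, without overlap, came *Serpina3n* (494 ± 42.4), *Serpina3m* (121 ± 17.0), *Serpina10* (34.2 ± 5.35) and *Serpina6* (15.7 ± 2.32 CPM per kb). *Serpina1a* and *Serpina1b* changed places when the longest principal transcript was used as the length.

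RSEM, the program that produced the counts, divides reads that match several genes by estimate. The deposited values of *Serpina1a* to *Serpina1e*, *Serpina3k* and *Serpina3m* were not whole numbers in any of the 16 libraries, and those of *Serpina3n* in 7, whereas *Serpina6* and *Serpina10* were whole in all 16. Of all stretches of 100 bases in its transcript, *Serpina1a* shared all but 39.0% with another gene, *Serpina1c* all but 41.5% and *Serpina1e* all but 81.8%. *Serpina3k*, *Serpina3m* and *Serpina3n* had 95.1%, 93.9% and 99.8% of their own, and *Serpina6* and *Serpina10* 100%. The annotated span of *Serpina3m* also begins at the same base as that of *Serpina3k*, and that of *Serpina1b* encloses *Serpina1d*. Changes of single *Serpina1* copies are therefore uncertain, and each subfamily is also given as a sum, which does not depend on how reads were divided among its copies. The sums still depend on how reads were divided with genes outside them. *Serpina3n* shared stretches of 100 bases with *Serpina3e-ps* and *Serpina3g*, and each *Serpina1* copy shared some with 5 genes, not all of them copies.

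Lipid lowered the alpha-1-antitrypsin genes *Serpina1b*, *Serpina1c* and *Serpina1d*, *Serpina3n* and *Serpina6*, and raised *Serpina10*. Of the 10 genes, 6 passed the test between lipid-treated and untreated hepatocytes (edgeR, adjusted p under 0.05), 1 higher and 5 lower. That share is to be read against 47.5% of all 11675 genes tested. All 9 genes other than *Serpina10* were lower in 4 of 4 letters, and over the 10 genes the log2 fold changes had a median of -0.18, against 0.00473 over all genes tested. The groups did not overlap for 4 of the 10 genes, against 32.5% of all genes tested. DESeq2 called 9 of the 10, against 46.5% of all genes tested. Without the replicate letter as a block in the model 0 passed (3 at an unadjusted p under 0.05), against 35.5% of all genes. The count was 2 without untreated replicate C (41.1% of all genes) and 3 without lipid-treated replicate B (42.7%). Without lipid + itaconate-treated replicate C, which enters the estimate of the spread, it was 10 (51.5%). In bulk RNA a smaller number of hepatocytes and less of a transcript per hepatocyte cannot be told apart. The summed hepatocyte markers had a median of 40879 CPM in untreated and 36947 CPM in lipid-treated cells, macrophage markers of 233 and 297 CPM and cholangiocyte markers of 810.0 and 461 CPM. These sums rest on their most abundant genes. For cholangiocytes these were *Spp1* (log2 fold change -0.97) and *Sox9* (-0.37), while *Krt19*, *Krt7* and *Epcam* were under 1 CPM. Among the hepatocyte markers *Alb* (-0.18) and *Ttr* (-0.20) fell while *Asgr1* rose (0.26), and among the macrophage markers *Cd68* rose (0.43) while *Adgre1* (-0.82), *Cd5l* (-0.81) and *Marco* (-0.76) fell. Their part in the result was not tested.

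**Figure D1:**
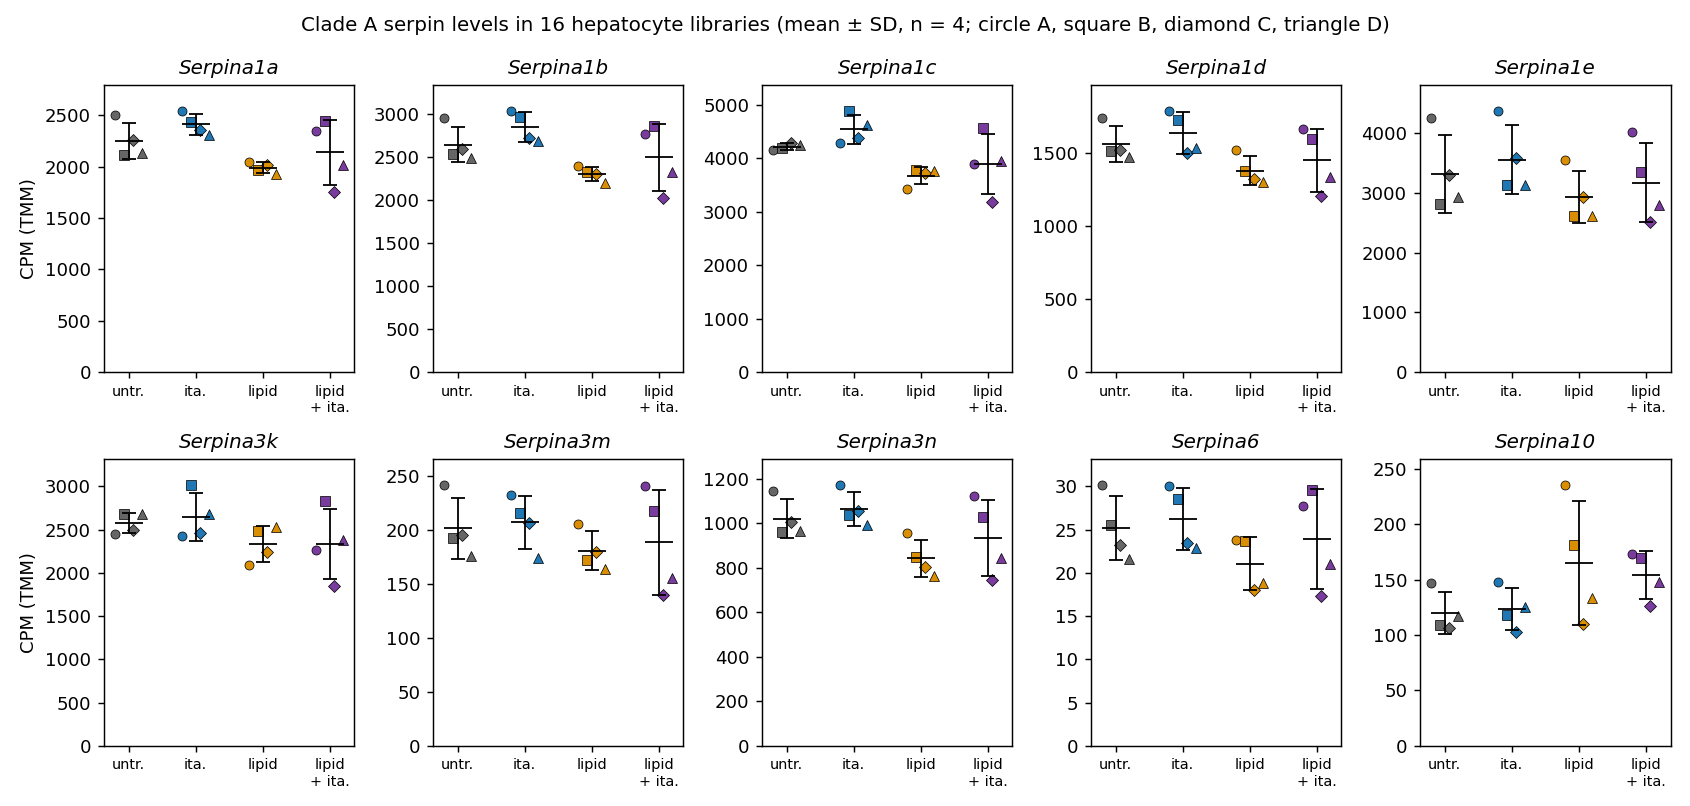
Levels of the 10 clade A serpins in CPM (y axis from 0, scaled by gene) in the 4 libraries of each group (symbols show the replicate letter, black bars the mean ± SD, n = 4). The 4 lipid-treated libraries lie below all untreated ones for *Serpina1a*, *Serpina1b*, *Serpina1c* and *Serpina3n*, and lipid + itaconate-treated replicate C is the lowest of all libraries in 9 panels.

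The estimates of the 5 *Serpina1* copies were close to each other. Their sum was 15612, 13162, 13949 and 13231 CPM in untreated replicates A to D, and 12992, 12098, 12317 and 11811 CPM in lipid-treated replicates A to D. Every lipid-treated library was below every untreated one, a difference of 11.9% (log2 fold change -0.18, SE 0.068, adjusted p = 0.0358, edgeR). The call on the sum was lost without untreated replicate A, C or D and without lipid-treated replicate A, B or D, with an adjusted p of up to 0.122 and a fold change of -0.15 or beyond. Among the copies, *Serpina1c* was at 4153, 4199, 4292 and 4246 CPM in untreated cells and at 3433, 3776, 3732 and 3758 CPM in lipid-treated cells. These groups were the most cleanly separated of the 5 copies (log2 fold change -0.20, adjusted p = 0.0243). *Serpina1b* (-0.20, adjusted p = 0.0254) and *Serpina1d* (-0.18, adjusted p = 0.0149) also fell in the edgeR test. *Serpina1a* (-0.17, adjusted p = 0.0526) and *Serpina1e* (-0.17, adjusted p = 0.0806) did not pass, with estimates close to those of the copies that did.

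*Serpina3n*, the acute phase member of its subfamily, showed the largest fall of the 10 genes in this comparison. It was at 1147, 959, 1008 and 965 CPM in untreated replicates A to D and at 957, 850.1, 803 and 761 CPM in lipid-treated ones. The highest lipid-treated library, replicate A, lay just under the lowest untreated one, and within letters the fall was 0.17 to 0.34 on the log2 scale. The fitted change was -0.28 (SE 0.068, adjusted p = 0.00343, edgeR), a decrease of 17.5% with a 95% interval from -25.4% to -8.84%. Of the 23 alternative fits it was lost only without the replicate letter (adjusted p = 0.0615). *Serpina3k*, a kallikrein-binding inhibitor, was at 2578 ± 117 CPM in untreated and 2337 ± 207 CPM in lipid-treated cells (log2 fold change -0.14, adjusted p = 0.0919). *Serpina3m* was at 201 ± 28.3 and 180.3 ± 18.0 CPM (-0.15, adjusted p = 0.162). Neither passed alone, while the sum of the 3 copies did (-0.17, SE 0.067, adjusted p = 0.0409), with no overlap between the groups (3699 to 3847 against 3232 to 3513 CPM). This call on the sum was marginal, and 11 of the 16 fits that left out 1 library lost it, with an adjusted p of up to 0.143.

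*Serpina6* was the least abundant member and fell with lipid. It was at 30.2, 25.6, 23.2 and 21.6 CPM in untreated replicates A to D and at 23.8, 23.6, 18.0 and 18.8 CPM in lipid-treated ones. The groups overlapped because replicates A and B were high under both conditions, and every lipid-treated library was below its own letter. The log2 fold change was -0.26 (SE 0.077, adjusted p = 0.0121, edgeR), a decrease of 16.4%. Without untreated replicate C it no longer passed.

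*Serpina10* was the member that rose. It was at 147, 109, 106 and 117 CPM in untreated replicates A to D and at 236, 181, 109.6 and 133 CPM in lipid-treated ones. The rise was large in letters A and B (0.68 and 0.73 on the log2 scale) and small in D and C (0.19 and 0.04), so that the groups overlapped. The log2 fold change was 0.42 (SE 0.099, adjusted p = 0.00254, edgeR), an increase of 34.1% with a 95% interval from 15.9% to 55.2%. Relative to the *Serpina1* sum in the same library, *Serpina10* was higher with lipid by 0.60 on the log2 scale and in 4 of 4 letters. This ratio joins the rise of *Serpina10* with the fall of the sum, both given above, and is not separate evidence. A two-sided exact permutation test over the 8 libraries, which ignored the letters, gave p = 0.0571, and the smallest p it allows is 0.0286. After adjustment over 20 such ratios, a measure chosen after the data were seen, the permutation p was 0.571.

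**Figure D2:**
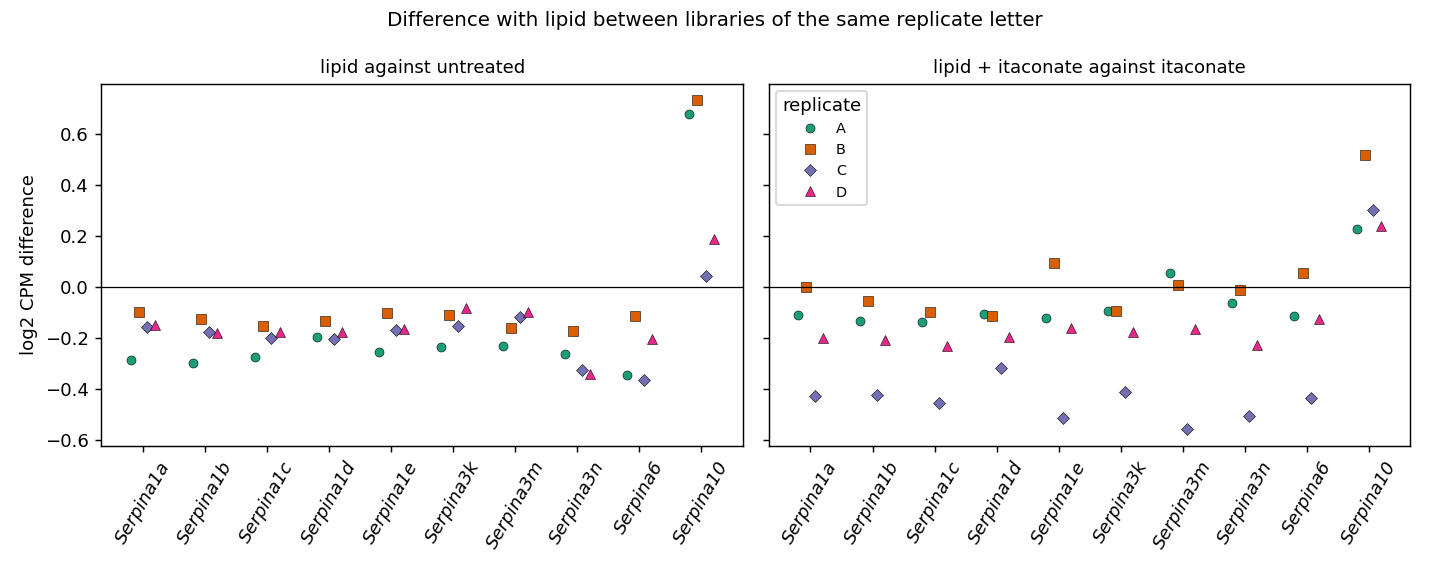
Difference in log2 CPM with lipid between libraries of the same replicate letter (y axis), for each gene (x axis), without itaconate (left) and with itaconate in both groups (right). On the left all letters are below 0 for 9 genes and above 0 for *Serpina10*, and on the right replicate C is the lowest for each of the 9 genes.

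With itaconate in both groups, the estimates for lipid had the same signs in all 10 genes. Lipid + itaconate-treated and itaconate-treated hepatocytes share no library with the comparison above, but both comparisons share the replicate letters and 1 model. Between these groups 7 of the 10 genes passed, 1 higher and 6 lower, against 47.0% of all genes tested (edgeR). Without the letter as a block 0 passed (1 at an unadjusted p under 0.05), against 34.2% of all genes tested. With only the 8 libraries of this comparison 3 did, against 41.1%. *Serpina10* rose from 123 ± 19.0 to 154 ± 21.7 CPM (log2 fold change 0.32, SE 0.099, adjusted p = 0.0142) and was higher in 4 of 4 letters. The *Serpina1* sum was at 16083, 15157, 14564 and 14346 CPM in itaconate-treated replicates A to D and at 14645, 14714, 10699 and 12442 CPM in lipid + itaconate-treated ones. It was lower in every letter, but by little in B and by most in C, and the groups overlapped (-0.20, SE 0.068, adjusted p = 0.0231). *Serpina1a*, *Serpina1b*, *Serpina1c*, *Serpina1d*, *Serpina3k* and *Serpina3n* fell, with log2 fold changes of -0.18 to -0.22, and *Serpina3n* went from 1065 ± 77.6 to 935 ± 172 CPM (-0.20, adjusted p = 0.0258).

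The calls turned on a few libraries. Lipid + itaconate-treated replicate C differed from itaconate-treated replicate C by -0.32 to -0.56 on the log2 scale for the 9 genes that were lower. Without lipid + itaconate-treated replicate C, 3 of the 10 genes passed (*Serpina10*, *Serpina1c* and *Serpina1d*), and the change of the *Serpina1* sum was -0.11 (adjusted p = 0.0864). Without lipid + itaconate-treated replicate B, all 10 passed, 9 of them lower. The same 3 genes passed without itaconate-treated replicate C and without lipid + itaconate-treated replicate D, and 4 passed without itaconate-treated replicate B or D. In these fits without 1 library, 38.9% to 45.3% of all genes tested were called. Without itaconate-treated replicate A or B the rise of *Serpina10* did not pass (0.29, adjusted p = 0.0518, and 0.28, adjusted p = 0.0616, edgeR). In replicate C the hepatocyte markers summed to 30288 CPM, the lowest of the 16 libraries, against 35612 to 49539.6 CPM in the other lipid + itaconate-treated libraries. The part of this in the result was not tested.

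Itaconate alone gave no call in the family. Between itaconate-treated and untreated hepatocytes 0 of the 10 genes passed in edgeR, against 4.91% of all genes tested. At an unadjusted p under 0.05 there were 0, against 21.3%, and DESeq2 also called 0, against 6.78%. All 10 estimates were above 0 (log2 fold changes of 0.03 to 0.11, median 0.06), and 5 of the 10 genes were higher in 4 of 4 letters (*Serpina1a*, *Serpina1b*, *Serpina1c*, *Serpina1e* and *Serpina3n*). The largest was *Serpina1b*, at 2953, 2542, 2601 and 2496 CPM in untreated and 3038, 2974, 2728 and 2685 CPM in itaconate-treated replicates A to D. It was higher in each letter while the groups overlapped (log2 fold change 0.11, adjusted p = 0.369, 95% interval from -2.32% to 19.1%). The *Serpina1* sum was 7.54% higher (adjusted p = 0.387), with an interval reaching from -0.04 to 0.25 on the log2 scale. For *Serpina10* the interval ran from -11.0% to 19.1%, and changes within these limits were not excluded. This comparison and that of lipid with untreated cells share the untreated libraries.

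In lipid-loaded cells itaconate again gave no call. Between lipid + itaconate-treated and lipid-treated hepatocytes 0 of the 10 genes passed, against 2.58% of all genes tested, and DESeq2 called 0, against 4.36%. At an unadjusted p under 0.05 there was 1 gene, *Serpina6*, against 17.3% of all genes tested. *Serpina6* was at 23.8, 23.6, 18.0 and 18.8 CPM in lipid-treated and at 27.8, 29.6, 17.3 and 21.02 CPM in lipid + itaconate-treated replicates A to D. It was higher in 3 of 4 letters and slightly lower in C (log2 fold change 0.17, adjusted p = 0.266, edgeR). *Serpina3n* had the next largest estimate (0.14, adjusted p = 0.292), also higher in 3 of 4 letters. Without lipid + itaconate-treated replicate C, where the calls over all genes tested also rose to 7.63%, 6 of the 10 genes passed, all higher: *Serpina1a*, *Serpina1b*, *Serpina1c*, *Serpina1e*, *Serpina3n* (0.23, adjusted p = 0.0111) and *Serpina6* (0.26, adjusted p = 0.0262). The *Serpina1* sum then changed by 0.18 (adjusted p = 0.0379), against 0.09 (adjusted p = 0.539) with all libraries. The calls for itaconate in lipid-loaded cells thus turned on this 1 library.

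**Figure D3:**
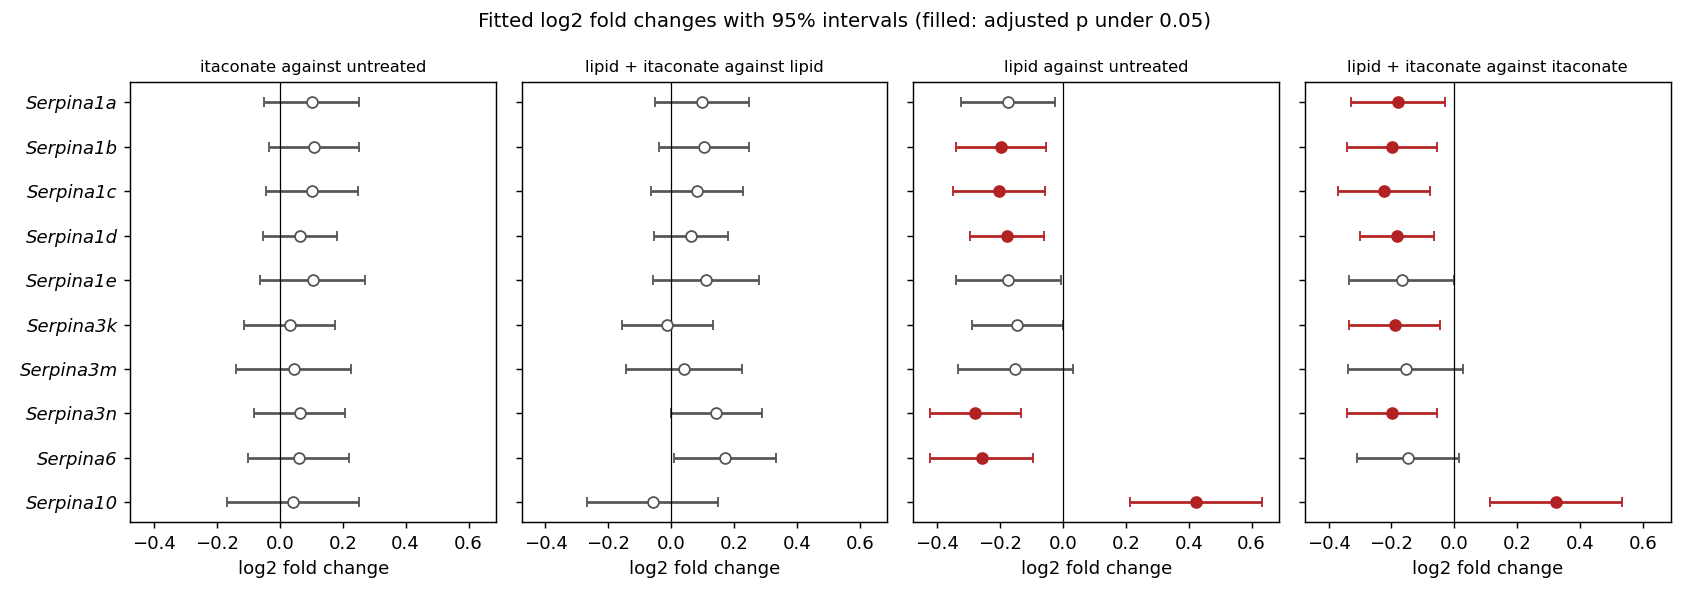
Fitted log2 fold changes (x axis) of the 10 genes in 4 comparisons with their 95% intervals, filled red where the adjusted p was under 0.05. Points of both itaconate comparisons (left panels) are open, and in the lipid comparisons (right panels) *Serpina10* lies alone to the right of 0, at 0.42 and 0.32.

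The effect of itaconate was not shown to differ with lipid. The interaction passed for 0 of the 10 genes in edgeR, against 0.00857% of all genes tested, and for 0 in DESeq2, against 0.308%. At an unadjusted p under 0.05 it passed for 0 in edgeR, against 8.60%. Estimates lay between -0.10 (*Serpina10*) and 0.11 (*Serpina6*) on the log2 scale. The interval of *Serpina10* ran from -0.40 to 0.19.

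Several serpins also differed between replicate letters. In a test chosen after the data were seen, levels differed between letters for 7 of the 10 genes, against 25.8% of all genes tested (edgeR). The exceptions were *Serpina1a* (adjusted p = 0.169), *Serpina1b* (0.0554) and *Serpina1c* (0.218). *Serpina10* had the widest range over letters (0.64 on the log2 scale, adjusted p = 0.00149), followed by *Serpina1e* (0.49, adjusted p = 0.000815), while the median range over all genes tested was 0.19. *Serpina1e* was highest in letter A in each group, at 4251, 4376, 3559 and 4023 CPM in untreated, itaconate-treated, lipid-treated and lipid + itaconate-treated cells, and no other library exceeded 3589 CPM.

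The letters also differed in how the *Serpina1* sum was divided. In letter A *Serpina1e* made up 27.3 ± 0.0922% of the sum (SD over the 4 treatments) and *Serpina1c* 26.6 ± 0.116%. In letters B, C and D *Serpina1e* made up 21.6 ± 0.802%, 23.9 ± 0.525% and 22.2 ± 0.272%, and *Serpina1c* 31.6 ± 0.625%, 30.2 ± 0.373% and 32.0 ± 0.281%. The order of the 2 copies was thus reversed in letter A, in each of its 4 libraries. *Serpina1a*, with 15.9% to 16.3% by letter, kept its share. *Serpina1e* is the copy with the most positions of its own in the stretch printed above, and how RSEM divided shared reads was not tested.

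**Figure D4:**
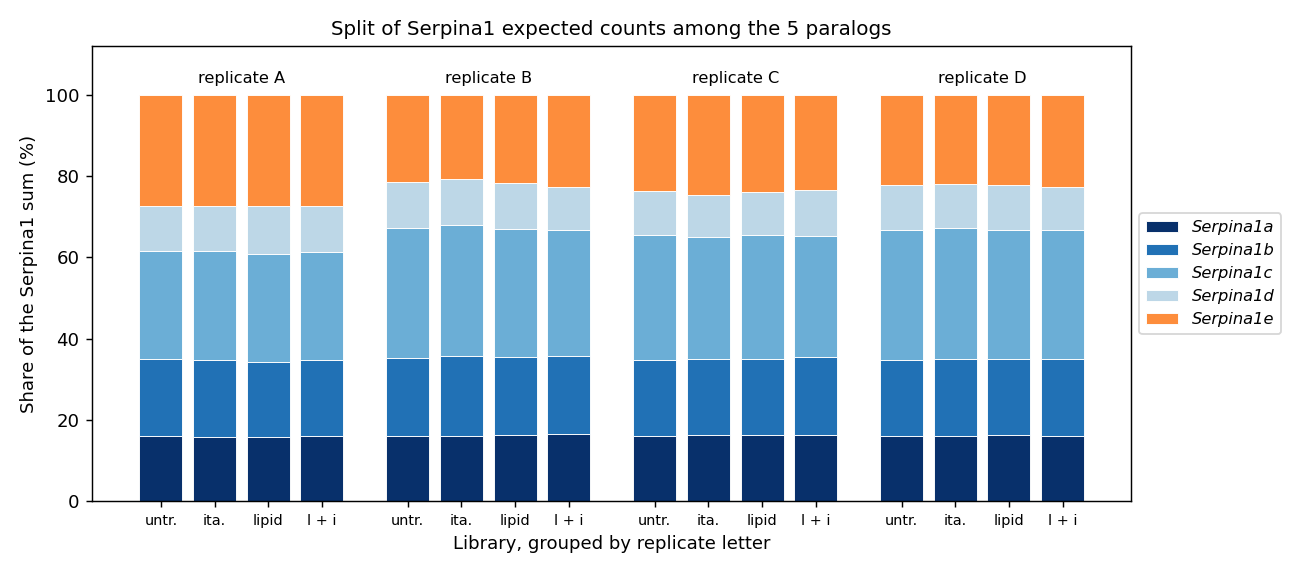
Share of the *Serpina1* expected counts (y axis, %) of each of the 5 copies in the 16 libraries, grouped by replicate letter on the x axis. *Serpina1e* (orange) takes 27.3% in letter A and 21.6% to 23.9% in the other letters, while bars within a letter are nearly alike across treatments.

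Other genes of the family and its partners were counted from lists chosen with earlier results known. Lipid called 23.8% of all genes tested higher and 23.7% lower. With itaconate in both groups it called 23.5% each way, and each list is to be read against these shares. Itaconate called 1.96% higher and 2.95% lower without lipid, and 1.32% higher and 1.26% lower in lipid-loaded cells. The table held 19 other genes with a clade A name, 16 of them listed. Of the 5 listed genes that were tested lipid lowered 3 and raised 0, among them *Serpina7* (thyroxine-binding globulin, log2 fold change -0.58, adjusted p = 0.000523) and *Serpina9* (-0.86, adjusted p = 0.0135, near 1 CPM). The pseudogene *Serpina3d-ps*, near 1 CPM and the only tested gene of the 3 not listed, also fell (-1.04, adjusted p = 0.00256) and was added after its values were seen. Of 11 tested serpins of other clades lipid called 4, a smaller share than over all genes. It raised *Serpinb6a* (1.40) and the plasmin inhibitor *Serpinf2* (0.22), and lowered the heparin cofactor *Serpind1* (-0.32) and the C1 inhibitor *Serping1* (-0.21). Itaconate lowered the intracellular serpins *Serpinb6a* (-0.52, adjusted p = 0.0046) and *Serpinb9* (-0.34, adjusted p = 0.0305), which are not secreted. In lipid-loaded cells it lowered *Serpinb6a* (-0.79) and *Serpinb6b* (-0.65), and it raised 0 of the 11 in either comparison.

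Of 8 tested proteases and partners of these inhibitors, lipid raised *F10*, the gene of coagulation factor X (0.28, adjusted p = 0.00413), and lowered *F11*, of factor XI (-0.46, adjusted p = 1.7e-05), and the plasminogen gene *Plg* (-0.20, adjusted p = 0.0442). Factors X and XI are both targets of the inhibitor encoded by *Serpina10*. *Proz*, the gene of its cofactor protein Z, had an estimate of -0.16 (adjusted p = 0.0718). Itaconate lowered *F11* (-0.24, adjusted p = 0.0259) and none of the other 7. Of the 8, lipid in the presence of itaconate raised 0 and lowered 2, *Proz* (-0.28) and *Plg* (-0.20).

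Of 22 acute phase genes tested, 15 fell with lipid, 4 rose and 3 did not pass, with a median log2 fold change of -0.23, against 0.00473 over all genes tested. The largest falls were those of *Steap4* (-1.27) and the serum amyloid gene *Saa3* (-1.11), and the largest rises those of the orosomucoid genes *Orm3* (0.93) and *Orm2* (0.31). Of 12 genes of the IL-6 and STAT3 pathway, which drives the acute phase response, 7 fell and 0 rose, led by *Cebpd* (-1.41) and *Socs3* (-0.77), the feedback inhibitor of the pathway. With itaconate in both groups, lipid lowered 7 of these 12 and raised 2. In lipid-loaded cells itaconate raised *Steap4* (0.46, adjusted p = 0.0264), *Apcs* (0.31, adjusted p = 0.0269) and *Socs3* (0.41, adjusted p = 0.00501) and lowered *Itih3* (-0.20, adjusted p = 0.0435), with 0 calls in either list for itaconate alone.

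Of 21 genes of secretion and quality control, which handle serpins in the endoplasmic reticulum, 13 fell and 3 rose with lipid, the largest changes being those of *Herpud1* (-0.69) and *Calr* (-0.58) on one side and *Derl2* (0.53) and *Edem2* (0.40) on the other. The calls in the next 2 lists made up a share close to the 47.5% of all genes called with lipid. Of 14 hepatocyte transcription factors 3 rose, with *Prox1* (0.53) and *Cebpa* (0.39) first, and 3 fell, among them *Nr5a2* (-0.42). Of 13 glucocorticoid genes, which bear on the hormone carried by the *Serpina6* product, 2 rose (*Zbtb16*, 0.76, and *Tsc22d3*, 0.48) and 4 fell, with *Pck1* (-0.61) and *Akr1d1* (-0.53) first. Of 15 other plasma protein genes 2 rose (*Ahsg*, 0.21, and *Trf*, 0.15) and 7 fell, with *Hrg* (-0.32) and *Apoa2* (-0.27) first. Itaconate gave 0 calls in these 4 lists, with or without lipid.

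Profiles most like those of 3 members were sought among 9632 genes of at least 5 CPM by the root mean square difference of centred log2 CPM over the 16 libraries, which share letters and treatments. For *Serpina3n* they were *Afm* (0.0646), *Prodh2* (0.0714) and *Plg* (0.0763), against a spread of 0.198 in *Serpina3n* itself. For *Serpina6* they were *Pemt* (0.0831), *Fgg* (0.0839) and *Ces1g* (0.0866), against 0.250. For the *Serpina1* sum they were *Cyp3a11* (0.0551), *H3f3b* (0.0589) and *Msrb1* (0.0605), against 0.158.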

How the data were processed

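RNA-seq of 16 mouse hepatocyte libraries was analysed. The authors deposited expected counts per gene from RSEM 1.3.1, made after trimming with cutadapt 1.18 and alignment with STAR 2.7.0f to mm10, per the submitters' processing notes. These values carry no normalization and were rounded to whole numbers. The GENCODE release was not given in the sources used here, and all 55450 identifiers matched release M21. The study's later filter, batch removal and tests were not part of the deposited values.

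Genes averaging 1 CPM or more (11675) were tested in R 4.3.3 with edgeR 4.0.16 (TMM, quasi-likelihood test, treatment and replicate letter in 1 model of all libraries, Benjamini-Hochberg over all genes tested, threshold 0.05). A summed subfamily replaced its copies in the same fit. Members and lists were chosen with earlier results of these data known. All 10 members are named, from each list up to 2 called genes with the largest rise and 2 with the largest fall, and the 3 most similar genes of 3 profiles, except 1 listed gene that is not reported here. Library totals of 22346049 to 35512004 gave a gene at 1 CPM few counts, so that low genes have wide errors. The letters come from the labels. When group means were subtracted, libraries with the same letter correlated at 0.144 to 0.469 in all 24 pairs, with a median of 0.263. For different letters the median was -0.114 and the highest 0.178, so the ranges overlapped. The letters were taken to pair the libraries. No within-group pair was a duplicate (chi-square per gene of at least 9.14). Alternatives were no letter, RLE, no filter, filterByExpr, only the 8 libraries compared, DESeq2 1.42.0, limma-trend 3.58.1 (prior count 0.5), paralogs summed, and each library left out. The edgeR fit of lipid against untreated was run on simulated counts without differences between letters, so its handling of the letters was not tested.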

Additional observations from a re-analysis of the deposited data

Results flagged for a closer look

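Of 40 combinations of gene and group, 2 held a library far from the other 3 by Dixon's criterion at the 95% level, which chance alone passes in about 1 in 20 groups. *Serpina1d* in untreated replicate A was at 1739 CPM, with the nearest other library at 1516 CPM (gap over range 0.833). *Serpina1c* in lipid-treated replicate A was at 3433 CPM, with the nearest at 3732 CPM (0.872). Letter A is also the letter in which *Serpina1c* took its smallest share of the *Serpina1* sum.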

How the results depend on the processing

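Itaconate against untreated and the interaction gave 0 called members under every alternative. Over all genes tested these comparisons called 0.197% to 15.9% and 0% to 0.918%. For lipid against untreated (6 called), the count was 0 with no replicate block, against 35.5% of all genes tested. It was 10 with no filter (22.4%), 10 with only the 8 libraries compared (48.3%) and 10 with paralogs summed (each copy taking its sum's call). With 1 library left out it was 2 to 10 (40.4% to 51.5%). For lipid + itaconate against itaconate (7 called) it was 0 with no replicate block (34.2%) and 3 with only the 8 libraries (41.1%). With 1 left out it was 3 to 10 (38.9% to 47.7%). For lipid + itaconate against lipid (0 called) it was 0 to 6 with 1 left out (0.505% to 7.63%). The *Serpina1* sum lost its lipid call with no block (-0.19, adjusted p = 0.142) and in limma-trend (-0.18, 0.0944). With itaconate in both groups it lost it with no block (-0.20, 0.121), with only the 8 libraries (-0.20, 0.108) and in limma-trend (-0.21, 0.0605). The *Serpina3* sum lost its lipid call with no block (-0.17, 0.148) and in limma-trend (-0.17, 0.0544), and with itaconate in both groups with no block (-0.19, 0.117) and only the 8 libraries (-0.20, 0.0833). With 1 library left out, the *Serpina1* sum ranged from -0.23 to -0.15 (lipid), -0.27 to -0.11 (lipid with itaconate) and 0.016 to 0.18 (itaconate with lipid), and the *Serpina3* sum from -0.22 to -0.14, -0.26 to -0.10 and -0.035 to 0.12, and from -0.0024 to 0.080 for itaconate alone. Single estimates near 0 changed sign with 1 library left out. For itaconate alone *Serpina10* ranged from -0.028 to 0.11, *Serpina3k* from -0.013 to 0.070 and *Serpina3m* from -0.0041 to 0.084. In lipid-loaded cells *Serpina10* ranged from -0.15 to 0.052, *Serpina3k* from -0.077 to 0.069 and *Serpina3m* from -0.050 to 0.16. RLE reversed no direction, and the cause of the lost calls was not tested.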
